A study of Mus musculus with 6 samples.

Results

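The mitochondrial respiratory chain and ATP synthase are built from subunits of the nuclear genome together with a small set encoded in mitochondrial DNA. Complex I (NADH dehydrogenase) and complex II (succinate dehydrogenase) pass electrons to ubiquinone, complex III (the cytochrome bc1 complex) passes them to cytochrome c, complex IV (cytochrome c oxidase) reduces oxygen, and complex V (ATP synthase) uses the resulting proton gradient to make ATP. In hepatocytes this machinery supplies energy for gluconeogenesis and urea synthesis and reoxidizes the carriers reduced by fatty acid oxidation.

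The genes described here are the nuclear-encoded subunits of complexes I to V, taken as the protein-coding genes whose symbols begin with the subunit prefixes of these complexes (Ndufa, Ndufb, Ndufc, Ndufs and Ndufv with a number, Sdha to Sdhd, Uqcr, Cyc1, Cycs, Cox4 to Cox8, and Atp5). In the GENCODE M21 annotation 87 genes met this rule, and 86 of them were among the 41388 genes measured: 37 of complex I, 4 of complex II, 9 of complex III, 18 of complex IV, 16 of complex V, the electron carrier gene Cycs, and Atp5s, which is named for the ATP synthase but is not a subunit of it. Ndufa4 is grouped with complex I by its name, although its protein is also described as a subunit of complex IV. The symbols of the assembly factors of complex I (Ndufaf) are outside the rule, and these genes served as a comparison.

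RNA sequencing was carried out on primary hepatocytes of C57BL/6J mice, isolated by collagenase digestion and kept overnight in growth medium. The control group was given a β-gal adenovirus for 24 h (replicates 1, 2 and 3), and the other group an adenovirus encoding Aloxe3 (replicates 7, 8 and 9), each at about 1000000 viral particles per 1000000 cells, so that both groups carry a viral vector. The question was what forced expression of Aloxe3, an epidermis-type lipoxygenase, does to the hepatocyte transcriptome. The labels do not say whether the replicates are separate animals or cultures, so the p-values measure the spread between these libraries, which may be technical.

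The values are RPKM, read counts divided by gene length and by library size. Library sizes were 29575553 to 32431318 reads in the β-gal group and 25521908 to 30399198 reads in the Aloxe3 group, so that a single read counts for 0.0308 to 0.0392 RPKM in a gene of 1 kb. Aloxe3 itself was measured at 2.04, 2.06 and 1.74 RPKM with β-gal and at 42.3, 45.8 and 56.3 RPKM in hepatocytes overexpressing Aloxe3 (log2 fold change 4.05, SE 0.10, adjusted p = 4.7e-06 from limma). Of the hepatocyte markers, Alb was at 4362 to 4552 RPKM and Hnf4a at 25.4 to 29.3 RPKM, while Cps1 was at only 0.915 to 1.64 RPKM. Of the 8 hepatocyte markers 3 were lower with Aloxe3 at an unadjusted p under 0.05, each without overlap of the groups: Ttr (log2 fold change -0.30, adjusted p = 0.0448 from limma), Serpina1a (-0.11) and Apoa1 (-0.10). Cps1 was higher (0.33), and the other 4 did not pass. Of all tested genes 5.42% were lower and 7.31% higher at this threshold, and 8.71% were lower without overlap. Among tested genes outside the respiratory list that averaged 50 RPKM or more, 22.8% were lower without overlap. The part of these differences in the results on the respiratory genes was not tested. Summed over 7 Kupffer cell markers the level was 150 to 153 RPKM in the β-gal libraries and 133 to 146 RPKM in the Aloxe3 libraries, nearly all of it from Cd68 (129 to 149 RPKM, log2 fold change -0.15, unadjusted p under 0.05). Adgre1 was at 1.47 to 1.99 RPKM, Csf1r at 1.11 to 1.68 RPKM and Marco at 0.705 to 1.18 RPKM, and the defining markers Clec4f, Vsig4 and Timd4 were at or below 0.102 RPKM. The 6 endothelial markers summed to 24.5 to 28.7 RPKM over all libraries. Of these Cdh5 was at 14.2 to 16.6 RPKM and Pecam1, Stab2 and Kdr at 2.71 to 4.66 RPKM. Lyve1 was at 0.415 to 0.594 RPKM and Clec4g at or below 0.151 RPKM. The 4 cholangiocyte markers summed to 74.7 to 93.5 RPKM. Nearly all of this came from Krt19 (32.9 to 51.0 RPKM) and Sox9 (38.3 to 49.3 RPKM). Krt7 was at 0.0944 to 0.163 RPKM and Epcam at 0.154 to 0.456 RPKM. The 6 stellate markers summed to 3.15 to 3.78 RPKM with Lrat at 0. Aloxe3 replicate 9 stood apart in the share of reads on the mitochondrial genome, 3.70% against 2.98% and 2.95% in Aloxe3 replicates 7 and 8 and 2.76% to 2.86% with β-gal, and the counts over the 81 genes and the medians of the gene lists are given without it as well.

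Sequences of the promoters are shown first, because some of these genes hold near their starts known binding words of factors of mitochondrial biogenesis. RefSeq promoters (GRCm38.p6, 250 bases before to 50 bases after each start) were matched for 67 of the 86 genes, with 72 promoters in all, and in 61 of the 72 the last 40 bases were found in a transcript of the gene. On either strand, the word GCATGCGC of nuclear respiratory factor 1 was present in 11 of these 72 promoters (15.3%), from 11 genes, and in 2.71% of 32851 promoters of all genes. The word CCGGAAG of the ETS family, to which GABPA belongs, was present in 16 of the 72 (22.2%) and in 8.86% of all promoters. The estrogen-related receptor word TCAAGGTCA was found in 2 promoters, those of Sdhd and Atp5g3 (2.78%, against 0.423%), and TATAAA in 8 (11.1%, against 13.6%). A match describes the letters in this window and is not evidence of binding. The promoters of all genes were not matched to these genes in base content or expression.

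The word AAGATGGC of YY1 was present in 9 of the 72 promoters (12.5%), from 9 genes, and in 2.75% of all promoters. All 9 matches lay on the strand of the gene and 8 of the 9 began after the start, compared with 61.2% and 40.2% of the 927 matches over all promoters. In 8 of the 9 the letters ATG inside the word are an annotated start codon in GENCODE M21, and no match overlapped a CCGGAAG match. The 30 bases around each match are given to show the shared word beside the start codon. The word is in capitals and the strand of the gene is read 5′ to 3′.
Ndufb8: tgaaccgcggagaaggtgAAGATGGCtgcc
Ndufs7: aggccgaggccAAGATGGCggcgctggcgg
Ndufa9: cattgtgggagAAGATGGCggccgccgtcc
Ndufc1: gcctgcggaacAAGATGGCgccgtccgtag
Ndufa3: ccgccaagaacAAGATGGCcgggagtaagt
Ndufs4: gcgtttgcctacaggAAGATGGCggcggtc
Ndufs6: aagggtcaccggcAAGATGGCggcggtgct
Atp5j: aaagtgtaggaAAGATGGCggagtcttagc
Atp5j2: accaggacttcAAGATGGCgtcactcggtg
The windows are at chr19:44555393-44555422 for Ndufb8 (minus strand), chr10:80249462-80249491 for Ndufs7 (plus strand), chr6:126849097-126849126 for Ndufa9 (minus strand), chr3:51408915-51408944 for Ndufc1 (minus strand), chr7:3617384-3617413 for Ndufa3 (plus strand), chr13:114388045-114388074 for Ndufs4 (minus strand), chr13:73328433-73328462 for Ndufs6 (minus strand), chr16:84835046-84835075 for Atp5j (minus strand) and chr5:145191500-145191529 for Atp5j2 (minus strand), in GRCm38.p6 coordinates from RefSeq. Of the 15 matched genes whose Aloxe3 values all lay below all β-gal values, 5 held this word (Ndufb8, Ndufs7, Ndufa9, Ndufc1 and Atp5j), 5 held CCGGAAG and 1 held GCATGCGC. Over all 67 matched genes, 9 (13.4%), 16 (23.9%) and 11 (16.4%) held these words. The 15 genes were picked by their values in these same data. No test was made of these counts.

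For 2 genes of complex I with low values in the Aloxe3 group, Ndufb6 and Ndufb7, the 250 bases before the start are shown with CCGGAAG or its reverse complement in capitals. The first base of the match lies 232 bases before the start of Ndufb6, on the strand opposite to the gene, and 20 bases before the start of Ndufb7, on the strand of the gene.
Ndufb6: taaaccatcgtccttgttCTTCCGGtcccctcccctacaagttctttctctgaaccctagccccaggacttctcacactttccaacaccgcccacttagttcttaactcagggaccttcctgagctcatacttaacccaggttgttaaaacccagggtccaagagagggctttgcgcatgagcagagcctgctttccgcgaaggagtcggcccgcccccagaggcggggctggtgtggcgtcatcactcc
Ndufb7: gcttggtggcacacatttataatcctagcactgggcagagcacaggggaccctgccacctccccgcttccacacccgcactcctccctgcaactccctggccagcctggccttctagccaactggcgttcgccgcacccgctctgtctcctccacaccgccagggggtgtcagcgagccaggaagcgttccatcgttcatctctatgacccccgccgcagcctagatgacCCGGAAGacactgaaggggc
These are chr4:40279422-40279671 on the minus strand and chr8:83566508-83566757 on the plus strand (GRCm38.p6, RefSeq).

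Of the 86 genes, 81 averaged at least 0.5 RPKM and were tested. The other 5 were Ndufa4l2, an alternative form of Ndufa4, and the tissue-restricted complex IV genes Cox6b2, Cox7b2, Cox8b and Cox8c. Cox7b2 and Cox8c were at 0 in all 6 libraries, Cox8b had at most 1 read in any library, and Ndufa4l2 and Cox6b2 had 3 to 7 reads each. With β-gal the 81 genes ranged from 0.612 to 359 RPKM with a median of 49.6 RPKM, and 40 of them were at or above 50 RPKM. The coefficient of variation among the β-gal libraries had a median of 3.94%.

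No gene of complexes I to V passed an adjusted p of 0.05 in hepatocytes overexpressing Aloxe3, against 50 of all 12693 tested genes (0.394%). The fold changes were small and mostly of 1 sign. Of the 81 genes, 65 had a negative log2 fold change, against 47.6% of all tested genes, with a median of -0.058 on the log2(RPKM + 1) scale, on which the changes of low genes are understated. The median over all tested genes was 0.0049. The largest differences were -0.23 for Ndufa2 and 0.32 for Cox4i2 (0.54 with a pseudocount of 0.1), and the smallest adjusted p was 0.204, for Cyc1 (limma). An unadjusted p under 0.05 was found for 13 genes that were lower (5.42% of all tested genes were lower by this rule) and for 2 that were higher (7.31%). In 18 of the 81 genes every Aloxe3 value was below every β-gal value (8.71% of all tested genes), and in 2 every Aloxe3 value was above (11.2%). When the libraries were rescaled to the same median, which lowers the fold changes of all genes slightly, 19 of the 81 genes were lower and 2 higher at an unadjusted p under 0.05, against 8.22% and 5.99% of all tested genes. Under quantile normalization the genes with non-overlapping groups and lower Aloxe3 values numbered 10 of 81, against 9.93% of all tested genes. With 3 libraries against 3, the smallest p of an exact two-sided permutation test is 0.1.

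The shift stands beside a dependence on level that was seen over all genes. Among 1019 other tested genes averaging 50 RPKM or more, 66.7% had a negative log2 fold change, the median was -0.034, and 22.8% had non-overlapping groups with lower Aloxe3 values. Of the 40 respiratory genes at this level, 39 were negative, the median was -0.075, and 12 had non-overlapping groups with lower values. From 5 to 50 RPKM, 22 of 31 respiratory genes were negative with a median of -0.059, against 52.6% and -0.0050 for 6276 other genes. Below 5 RPKM only 4 of 10 were negative, with a median of 0.033, close to the 0.030 of 5317 other genes. These level classes were chosen after the values had been seen, and no test was made of the difference.

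**Figure D1:**
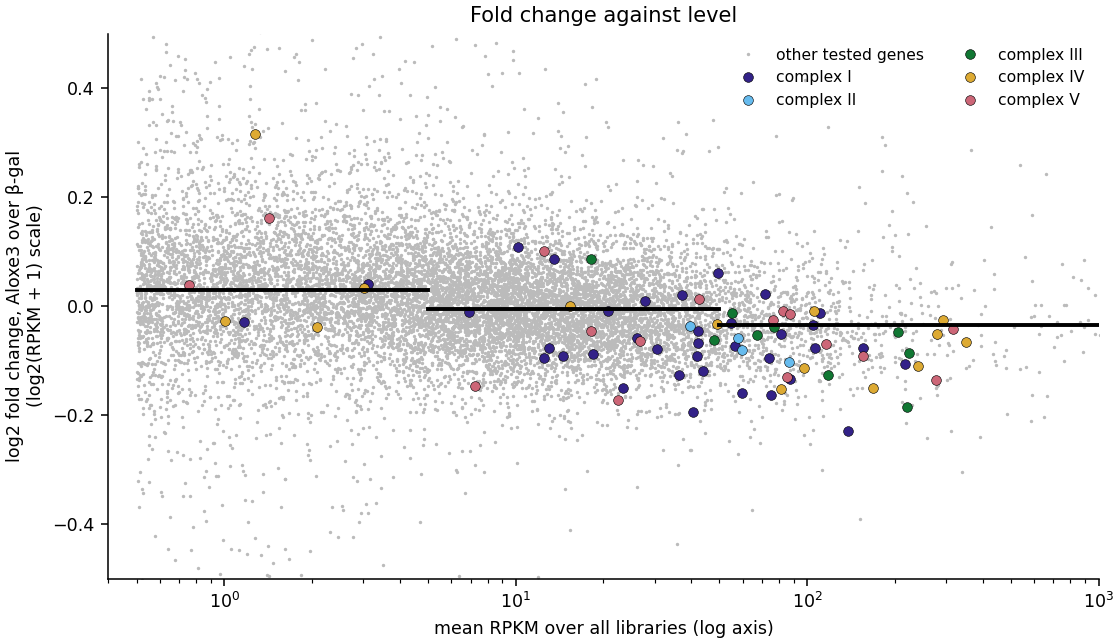
Log2 fold change (Aloxe3 over β-gal, log2(RPKM + 1) scale) of each tested gene against its mean RPKM over the 6 libraries on a log axis, with the respiratory genes coloured by complex, other tested genes in grey and black bars at the median of the other genes in each level class (0.030, -0.0050 and -0.034). Of the 40 respiratory genes at or above 50 RPKM, 39 lie below 0. Outside the axes lie 140 other genes and 0 respiratory genes.

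The libraries were uneven in this. The median difference from the β-gal mean over the 81 genes was 0.012, 0.024 and -0.029 in β-gal replicates 1, 2 and 3, and -0.028, -0.030 and -0.10 in Aloxe3 replicates 7, 8 and 9. Aloxe3 replicates 7 and 8 were thus close to β-gal replicate 3, and replicate 9 was the lowest of the 6 libraries for 45 of the 81 genes. Without replicate 9 the median log2 fold change was -0.033 for complex I, -0.026 for complex II, -0.030 for complex III, -0.039 for complex IV and -0.019 for complex V. Over all 81 genes it was -0.031, 60 of 81 genes were negative (43.4% of all tested genes), 8 were lower at an unadjusted p under 0.05 (4.78%), and 20 had non-overlapping groups with lower values, against 12.3% of all tested genes in that comparison. Of the 13 genes with an unadjusted p under 0.05 and lower values, 7 kept it without replicate 9: Cyc1, Ndufb6, Ndufb8, Ndufb7, Cox5a, Atp5a1 and Atp5d. The share of all reads taken by the 86 genes was 0.933%, 0.928% and 0.894% with β-gal and 0.887%, 0.888% and 0.837% with Aloxe3, with group means of 0.918 ± 0.021% and 0.871 ± 0.029% (SD, n = 3 each). Every Aloxe3 share was below every β-gal share. In RNA from whole cultures, fewer cells of a type and less RNA per cell cannot be told apart.

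**Figure D2:**
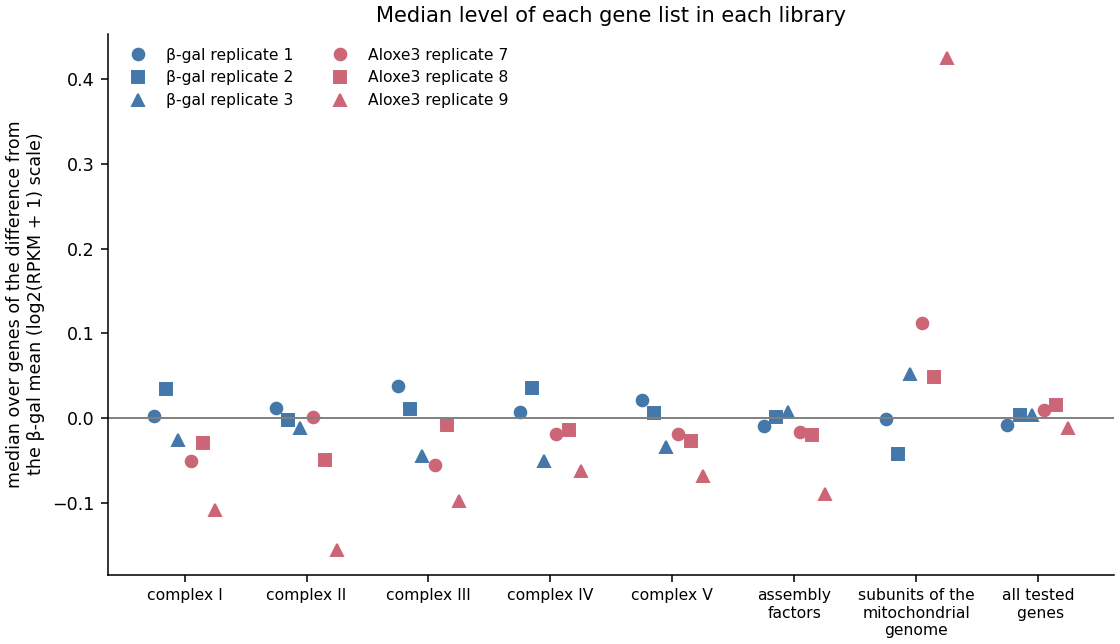
Median over genes of the difference of each library from the β-gal mean (log2(RPKM + 1) scale) for each complex, the assembly factors, the subunits encoded in the mitochondrial genome and all tested genes, with 1 point per library (blue, β-gal; red, Aloxe3). Aloxe3 replicate 9 is the lowest library in each of the 5 complexes and the highest for the subunits encoded in the mitochondrial genome (0.42).

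Complex I takes electrons from NADH and is the largest of the complexes, with core subunits that carry the flavin and the iron-sulfur clusters and a larger set of accessory subunits around them. Of its 36 tested genes, 29 had a negative log2 fold change, with a median of -0.075. At an unadjusted p under 0.05, 7 were lower and 0 higher (5.42% and 7.31% of all tested genes), and 11 had non-overlapping groups, all lower (8.71%, and 11.2% higher, of all tested genes). The 2 most separated were accessory subunits of the membrane arm. Ndufb6 (chromosome 4, 40270591 to 40279421) was at 42.9, 45.9 and 41.0 RPKM with β-gal and at 39.4, 36.0 and 37.8 RPKM with Aloxe3. Its 3 Aloxe3 values lay below the lowest β-gal value (log2 fold change -0.19, SE 0.052, adjusted p = 0.244 from limma). Ndufb8 (chromosome 19, 44548572 to 44555440) was at 24.85, 24.52 and 24.55 RPKM with β-gal, a spread of 0.18 (SD), and at 23.1, 22.4 and 20.96 RPKM with Aloxe3. The groups did not overlap (log2 fold change -0.15, SE 0.042, adjusted p = 0.254 from limma).

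Ndufa2, an accessory subunit of the matrix arm, had the lowest log2 fold change of all 81 genes (-0.23, SE 0.076). It was at 160, 152 and 136 RPKM with β-gal and at 136, 130 and 116 RPKM with Aloxe3, so that Aloxe3 replicate 7 and β-gal replicate 3 nearly coincided. Ndufs7, a core subunit that holds the last iron-sulfur cluster before ubiquinone, was at 67.6, 62.7 and 59.0 RPKM with β-gal and at 57.3, 58.7 and 53.1 RPKM with Aloxe3. The groups lay close without overlap (log2 fold change -0.16, SE 0.059). The remaining 3 genes of complex I with an unadjusted p under 0.05 were Ndufa13 (-0.13), Ndufa9 (-0.16) and Ndufb7 (-0.088), all without overlap. In Ndufa9 the lowest value was that of replicate 9, 63.3 RPKM, against 74.0 to 75.1 RPKM in the other Aloxe3 libraries, and the log2 fold change without it was -0.085.

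The 7 nuclear-encoded core subunits had a median log2 fold change of -0.091, and the 29 tested accessory subunits one of -0.074. Of the core subunits 6 were negative, and Ndufs7 and Ndufs8 were among those with non-overlapping groups and lower Aloxe3 values. Ndufv1, which binds NADH and the flavin, had a value of -0.12 on the log2 scale (SE 0.064), and its partner Ndufv2 one of 0.0098 (SE 0.048). Without replicate 9 these were -0.056 and 0.047. The median of the core subunits was -0.021 and -0.033 relative to β-gal in Aloxe3 replicates 7 and 8 and -0.18 in replicate 9, and without replicate 9 their median log2 fold change was -0.035, against -0.031 for the accessory subunits. Among the accessory subunits the highest log2 fold changes were those of Ndufs5 (0.11), Ndufv3 (0.087) and Ndufb11 (0.060), none with an unadjusted p under 0.05, and without replicate 9 these were 0.073, 0.036 and 0.076. The most abundant gene of complex I was Ndufa4 at 224 ± 11 RPKM (β-gal) and 208 ± 7.9 RPKM (Aloxe3; SD, n = 3 each), and the lowest tested was Ndufb2 at 1.19 ± 0.028 and 1.14 ± 0.012 RPKM. For both, every Aloxe3 value was below every β-gal value.

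**Figure D3:**
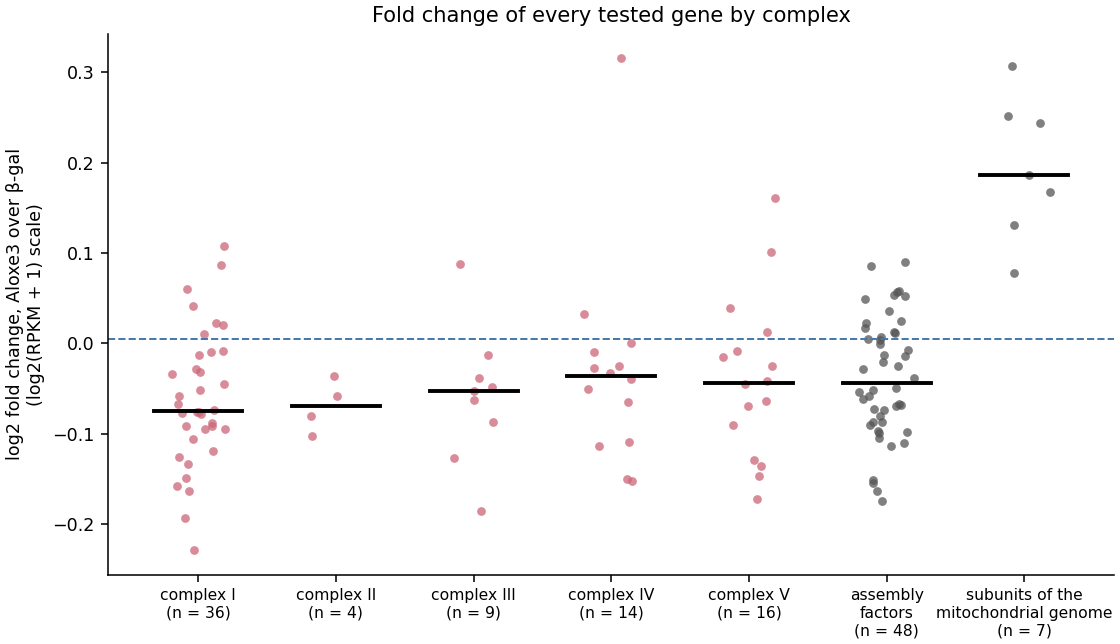
Log2 fold change (Aloxe3 over β-gal, log2(RPKM + 1) scale) of every tested gene of complexes I to V (red), of the assembly factors and of the subunits encoded in the mitochondrial genome (grey), with 1 point per gene, horizontal scatter added to separate points, black bars at the medians and a dashed line at the median of all tested genes (0.0049). The medians of complexes I to V lie between -0.075 and -0.036 and that of the mitochondrially encoded subunits at 0.19.

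Complex II links the citric acid cycle to the respiratory chain and is the only complex here with no subunit in the mitochondrial genome. Its 4 genes were all negative, from -0.10 to -0.037, and none had an unadjusted p under 0.05. Sdhb, the iron-sulfur subunit, was at 60.2, 58.6 and 58.4 RPKM with β-gal and at 57.3, 57.9 and 54.9 RPKM with Aloxe3. It was the 1 gene of the 4 whose groups did not overlap (8.71% of all tested genes were lower by this rule), with a log2 fold change of -0.058 (SE 0.036). Sdha, the flavoprotein, was at 60.5 to 62.5 RPKM with β-gal and at 61.2, 60.0 and 53.1 RPKM with Aloxe3, and Sdhd, a membrane anchor, at 88.8 to 90.4 RPKM and at 92.8, 85.3 and 72.6 RPKM. In both the low value was that of replicate 9, and in Sdhd replicate 7 was above every β-gal library. Without replicate 9 the log2 fold change moved from -0.080 to -0.017 for Sdha, from -0.10 to -0.0064 for Sdhd and from -0.058 to -0.036 for Sdhb. Sdhc, the other anchor, was at 40.0 to 40.1 RPKM with β-gal and at 40.3, 35.8 and 41.3 RPKM with Aloxe3, where replicate 8 was the low library, and its log2 fold change moved from -0.037 to -0.076 without replicate 9.

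Complex III passes electrons from ubiquinol to cytochrome c. Of its 9 genes 8 were negative, with a median of -0.053, and 1 had non-overlapping groups with lower Aloxe3 values (8.71% of all tested genes). That gene was Cyc1 (chromosome 15, 76343523 to 76346260), which encodes cytochrome c1, the heme subunit that hands electrons to cytochrome c. Cyc1 was at 240, 238 and 224 RPKM with β-gal and at 213, 206 and 198 RPKM with Aloxe3. All 3 Aloxe3 values were below all β-gal values (log2 fold change -0.19, SE 0.045, adjusted p = 0.204 from limma), and it had the smallest adjusted p of the 81 genes. With voom in limma, on reads derived from the RPKM values, Cyc1 passed the threshold (log2 fold change -0.19, adjusted p = 0.0487), as the only respiratory gene among 174 genes called by that method. Over the other alternatives its adjusted p from limma was 0.152 to 0.533. Uqcrq, a small subunit of the complex, was at 129, 126 and 115 RPKM with β-gal and at 115, 116 and 107 RPKM with Aloxe3, where β-gal replicate 3 lay among the Aloxe3 values (log2 fold change -0.13, SE 0.054). The core proteins Uqcrc1 (-0.048) and Uqcrc2 (-0.063) and the Rieske iron-sulfur protein Uqcrfs1 (-0.053) differed by less. Without replicate 9 these were -0.031, -0.020 and -0.031. Uqcr10 was at 230.3 ± 11 RPKM in the β-gal libraries and 217 ± 16 RPKM in the Aloxe3 libraries, and Uqcrb, the lowest gene of the complex (17.5 ± 1.6 and 18.7 ± 1.4 RPKM), was the 1 gene above 0 (0.087, and 0.032 without replicate 9; SD, n = 3 each).

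Cycs, which encodes the somatic cytochrome c that carries electrons from complex III to complex IV, was listed at only 0.571 to 0.646 RPKM with β-gal and at 0.541 to 0.783 RPKM with Aloxe3, from 47 to 81 reads per library. The log2 fold change was 0.034 (SE 0.077) and the groups overlapped. Of the 50-base windows in its transcripts 28.2% also occur in other measured genes, 59 in number, and reads that align to more than 1 place were not counted. Low listed values with shared windows were also seen for Ndufb4 (3.06 RPKM with β-gal, 37.0% of windows shared), Cox7c (2.96 RPKM, 23.0%) and Atp5l (7.69 RPKM, 65.3%), so levels of these genes are uncertain. Low levels and shared windows did not always go together. Ndufb2 was at 1.19 RPKM with 3.13% of windows shared, and Cox5a at 177 RPKM with 32.1%. Over the 10 tested genes under 5 RPKM with β-gal the median share was 7.1%. The part of shared windows in these levels was not tested.

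Complex IV reduces oxygen to water, and several of its nuclear subunits exist as isoforms of different tissues. Of the 14 tested genes 11 were negative, with a median of -0.036. In 1 of the 14 (7.14%) the groups did not overlap with lower Aloxe3 values and in 1 with higher ones. The shares over all tested genes were 8.71% and 11.2%, and counts of 1 cannot be told apart from these. Without replicate 9 the counts were 3 lower and 1 higher, against 12.3% and 19% of all tested genes. Cox5a (chromosome 9, 57521274 to 57532426), which encodes a matrix-side subunit, was at 183, 180 and 168 RPKM with β-gal and at 163, 162 and 152 RPKM with Aloxe3. Its groups did not overlap (log2 fold change -0.15, SE 0.047, adjusted p = 0.288 from limma), although 32.1% of its windows are shared with other genes. Cox7a2 had a similar log2 fold change of -0.15 (SE 0.081), which came largely from replicate 9 at 67.5 RPKM against 85.6 and 78.4 RPKM in the other Aloxe3 libraries, and was -0.061 without it. The most abundant gene of the complex and of all 86 was Cox6a1, at 362, 367 and 347 RPKM with β-gal and at 332, 331 and 366 RPKM with Aloxe3. Here replicate 9 was the high library of its group, as it was for Cox8a (299 RPKM, against 285 and 289 RPKM).

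The isoforms listed for hepatocytes were those known from liver. Cox6a1 was 301 to 413 times as high as the heart and muscle isoform Cox6a2 over the 6 libraries, and Cox7a2 was 33.8 to 57.8 times as high as the muscle isoform Cox7a1. Cox8a was at 285 to 299 RPKM, with Cox8b and Cox8c at or near 0, and Cox6b1 at 255 to 296 RPKM, with the testis isoform Cox6b2 at 0.106 to 0.208 RPKM. Cox7a2l, which is related to Cox7a2 and acts in joining complexes III and IV, was at 46.3 to 51.3 RPKM with overlapping groups. Cox4i2, the isoform known from lung and from low oxygen, was at 1.02, 0.743 and 1.33 RPKM with β-gal and at 1.49, 1.71 and 1.34 RPKM with Aloxe3. The lowest Aloxe3 value and the highest β-gal value were nearly equal, although the groups did not overlap (log2 fold change 0.32, SE 0.11, adjusted p = 0.321 from limma). These values rest on 19 to 41 reads per library. The main isoform Cox4i1 was at 249.1 ± 12.5 RPKM in the β-gal libraries and 231.2 ± 18.4 RPKM in the Aloxe3 libraries (SD, n = 3 each), and was 176 to 344 times as high as Cox4i2 with β-gal and 142 to 161 times as high with Aloxe3.

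**Figure D4:**
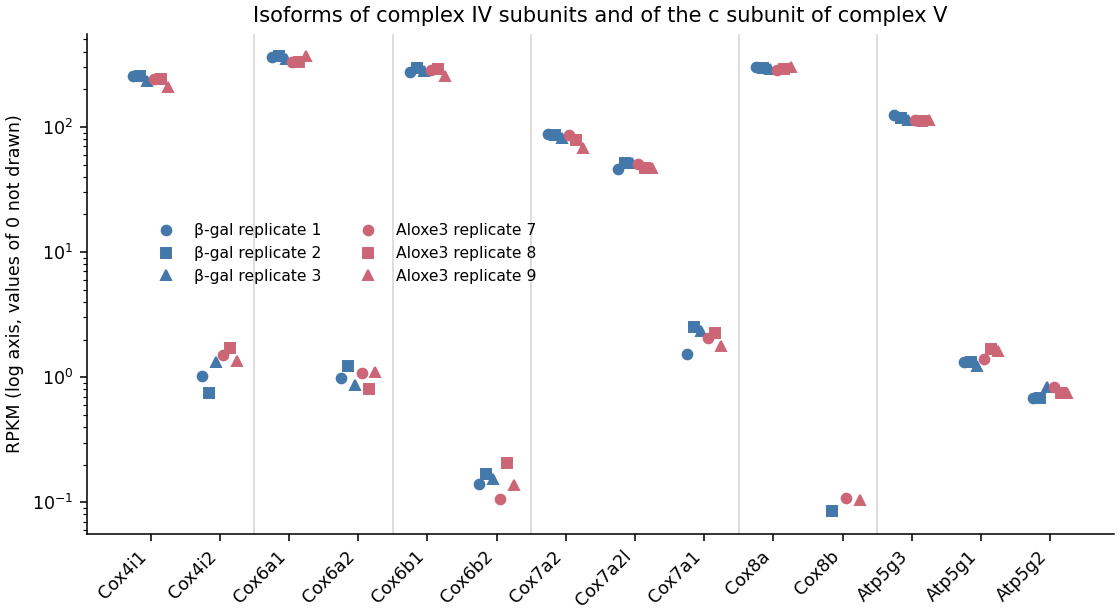
RPKM on a log axis of the isoforms of complex IV subunits and of the c subunit of complex V, with 1 point per library (blue, β-gal; red, Aloxe3), and values of 0 not drawn. Cox4i1, Cox6a1, Cox6b1, Cox7a2, Cox8a and Atp5g3 lie between 67.5 and 367 RPKM, and their alternative forms other than Cox7a2l lie at or below 2.54 RPKM.

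Complex V makes ATP in its F1 part, where the central stalk is turned by the ring of c subunits in the membrane. Of its 16 genes 12 were negative, with a median of -0.044, and 4 had non-overlapping groups with lower Aloxe3 values (8.71% of all tested genes). The 5 genes of the F1 part (Atp5a1, Atp5b, Atp5c1, Atp5d and Atp5e) were all negative with a median of -0.091, and the other 11 genes had a median of -0.025. Without replicate 9 these medians were -0.093 and -0.013. Atp5a1, the α subunit, was at 300, 287 and 283 RPKM with β-gal and at 277, 261 and 254 RPKM with Aloxe3. The groups did not overlap (log2 fold change -0.14, SE 0.045, adjusted p = 0.30 from limma). Its partner in the catalytic ring, the β subunit Atp5b, was at 321 ± 4.8 RPKM in the control libraries and 312 ± 16 RPKM in the others (SD, n = 3 each), with overlapping groups. The ratio of Atp5a1 to Atp5b was 0.892 to 0.923 with β-gal and 0.7996 to 0.880 with Aloxe3, so that these ratios did not overlap either. This ratio was not tested.

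Atp5d, the δ subunit of the central stalk, was at 166, 160 and 156 RPKM with β-gal and at 148, 151 and 154 RPKM with Aloxe3. The highest of its Aloxe3 values was that of replicate 9, and the groups did not overlap (log2 fold change -0.091, SE 0.038). The γ subunit Atp5c1 (-0.0090, SE 0.036) was nearly level, and Atp5e, the ε subunit, was at 23.76 ± 1.78 RPKM in the β-gal libraries and 21.02 ± 2.26 RPKM in the Aloxe3 libraries (SD, n = 3 each) with overlapping groups. Atp5j2, a subunit of the membrane part, was at 87.0, 92.1 and 87.3 RPKM with β-gal and at 87.98, 78.2 and 77.4 RPKM with Aloxe3 (-0.13, SE 0.055), where replicate 7 lay within the β-gal values.

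The c subunit is made from 3 genes whose mature proteins are the same. Atp5g3 was by far the highest, at 124, 119 and 114.6 RPKM with β-gal and at 114.5, 112 and 114 RPKM with Aloxe3, the highest Aloxe3 value just below the lowest β-gal value. Atp5g1 was at 1.33, 1.31 and 1.23 RPKM with β-gal and at 1.396, 1.68 and 1.62 RPKM with Aloxe3, and was the only other gene, beside Cox4i2, with an unadjusted p under 0.05 and a higher value (log2 fold change 0.16, SE 0.064, adjusted p = 0.36 from limma). Atp5g2 was at 0.681 to 0.828 RPKM with β-gal and at 0.745 to 0.842 RPKM with Aloxe3. The ratio of Atp5g3 to Atp5g1 was 90.5 to 93.1 with β-gal and 66.6 to 82.0 with Aloxe3. Of their windows, 10.9% in Atp5g1 and 38.4% in Atp5g2 are shared with other genes.

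**Figure D5:**
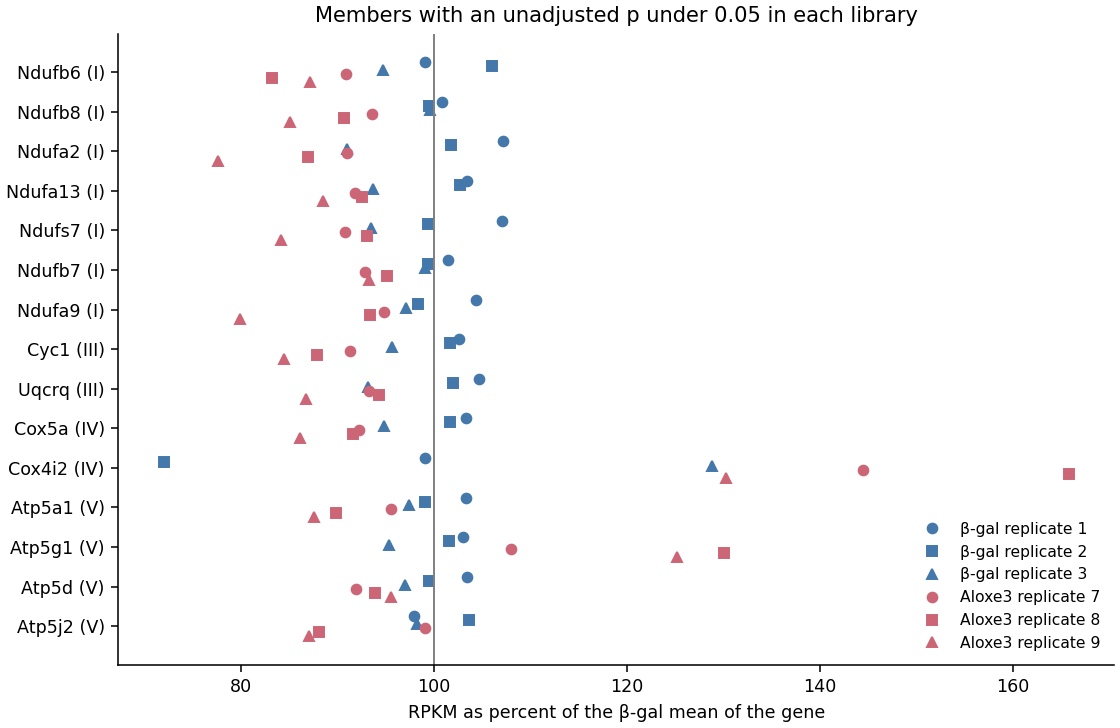
RPKM of the 15 genes with an unadjusted p under 0.05, as percent of the gene's β-gal mean, with 1 point per library (blue, β-gal; red, Aloxe3) and the complex in brackets. In 13 genes the Aloxe3 values are lower and in Cox4i2 and Atp5g1 they are higher, and the groups overlap in Ndufa2, Uqcrq and Atp5j2.

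Assembly factors insert cofactors and join subunits without being part of the finished complex. Of 52 assembly factors listed for the 5 complexes 48 were tested, 32 of them were negative, and the median log2 fold change was -0.044, against -0.058 for the 79 tested subunits. Without replicate 9, 28 of the 48 were negative with a median of -0.024, against -0.031 for the subunits. The difference between the median of the subunits and that of the assembly factors was 0.022, 0.022 and -0.039 in β-gal replicates 1, 2 and 3, and -0.010, -0.011 and -0.015 in Aloxe3 replicates 7, 8 and 9. The Aloxe3 values thus lay within the range of the β-gal values. No assembly factor passed an adjusted p of 0.05. At an unadjusted p under 0.05, 6 were lower, namely Pet100 (-0.15), Coa5 (-0.11), Coa6 (-0.15) and Surf1 (-0.097) of complex IV, Tmem70 (-0.10) of complex V and Ndufaf8 (-0.16) of complex I, and 0 were higher (5.42% and 7.31% of all tested genes). Without replicate 9 the value of Coa6 was -0.091 and that of Ndufaf8 -0.11. By complex, 6 of the 19 tested factors of complex IV had non-overlapping groups with lower values and a median of -0.067, against 8.71% of all tested genes. Of the 16 factors of complex I, 0 had lower values without overlap and 2 had higher ones (11.2% of all tested genes), with a median of -0.039. Without replicate 9 the medians were -0.046 for the factors of complex IV and -0.019 for those of complex I. The factors of complex II had a median of 0.011 with 3 of 4 positive and those of complex III one of 0.011 with 3 of 5 positive, with 0 non-overlapping groups in both, and the 4 factors of complex V a median of -0.056 with 1 lower without overlap. Without replicate 9 the medians of complexes II, III and V were 0.013, 0.0058 and -0.039, and 1 of the 5 factors of complex III was negative. Pet100, which acts early in the assembly of complex IV, was at 11.8, 10.8 and 12.0 RPKM with β-gal and at 9.98, 10.54 and 10.21 RPKM with Aloxe3, without overlap.

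The subunits of the same complexes encoded in the mitochondrial genome went the other way in sign. Of the 13 subunits 6 were listed at 0 in every library, while the 7 that were tested lay at 1303 to 7906 RPKM. A listed 0 here need not mean an absent transcript, and the share of reads on the mitochondrial genome leaves these 6 genes out. The cause of the zeros was not tested. These 7 had log2 fold changes of 0.078 to 0.31, and in all 7 the highest library was Aloxe3 replicate 9. mt-Nd1, a core subunit of complex I, was at 3243, 3301 and 3472 RPKM with β-gal and at 3624, 3553 and 4866 RPKM with Aloxe3 (log2 fold change 0.25, SE 0.12). Without replicate 9 the log2 fold change of mt-Nd1 was 0.10, those of the 7 subunits were 0.035 to 0.12, and their median was 0.069 in place of 0.19. The smallest adjusted p among the 7 was 0.407 (limma). When the libraries were rescaled to the reads outside the mitochondrial genome, the nuclear-encoded genes had a median log2 fold change of -0.053, with 65 of 81 negative.

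Of other genes of mitochondria and of protein synthesis, the 13 enzymes of the citric acid cycle had a median log2 fold change of -0.048 with 10 negative and 0 with non-overlapping groups. Without replicate 9 it was -0.016 with 8 negative. The 75 tested mitochondrial ribosomal proteins had a median of -0.016 with 42 negative, and 93 tested cytosolic ribosomal proteins one of -0.048 with 56 negative. Without replicate 9, 33 of 74 mitochondrial ribosomal proteins were negative and the median turned to 0.0073, and 58 of 91 cytosolic ones were negative with a median of -0.027. By non-overlapping groups with lower values, the count was 8 of 75 (10.7%) and 17 of 93 (18.3%), against 18 of the 81 respiratory genes (22.2%) and 8.71% of all tested genes. These shares were not matched for level. Among non-respiratory tested genes averaging 50 RPKM or more the share was 22.8%, and 40 of the 81 respiratory genes were at that level. None of these genes passed an adjusted p of 0.05.

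Genes with windows shared with other genes had differences closer to 0. The median log2 fold change was -0.075 for the 40 tested genes with no shared window, 35 of them negative, -0.047 for 18 genes with under 10% of windows shared, 17 of them negative, and -0.0097 for 23 genes with at least 10% shared, 13 of them negative. The median β-gal levels of these classes were 69.8, 49.2 and 20.8 RPKM, so that shared windows and level went together. The classes were chosen after the values had been seen, and the part of shared windows in the result was not tested.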

How the data were processed

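The data are 6 libraries of poly-A selected RNA, 3 for each adenovirus group, sequenced in a single run. The authors aligned single reads of 50 bases with STAR 2.0.4b to GRCm38.p2, assigned reads with 1 alignment and 1 gene using featureCounts 1.4.5 (Ensembl release 76), and deposited RPKM values for 41388 genes. The step from counts to RPKM is not given in the sources used here. No further scaling was applied to the deposited RPKM values. Whole-number steps in them gave the library size, and reads per gene were derived from it with the GENCODE M21 exon length or the smallest length that gives whole reads (tolerance 0.02). Errors are SDs over libraries, since counting error is only part of their spread.

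The 12693 genes averaging 0.5 RPKM or more were tested on the log2(RPKM + 1) scale in limma 3.58.1 (R 4.3.3), using eBayes with a variance trend, and p-values were adjusted over all 12693 by the Benjamini-Hochberg method, with a threshold of 0.05. A p under 0.05 without adjustment and non-overlap of the groups were counted beside it. Group labels came from the sample titles. The genes and lists were chosen with earlier results of these data known, so that no list is independent evidence, and lists are described by counts and medians only. Genes given with values were, in each complex, the 3 with the smallest p and the highest and lowest in level, all with an unadjusted p under 0.05, Cycs, the core subunits of complex I, the Sdh genes and the isoform groups, and up to 6 assembly factors by smallest p. Further genes were named after their values had been seen. Single values of some genes that enter the counts and medians are not reported here. Shared windows are 50-base stretches of a gene's protein-coding transcripts that also occur in another measured gene. Alternatives were another pseudocount (0.1), other filters, 3 other scalings, eBayes without trend, voom on derived reads, corrections of each library for GC content or exon length by a spline (5 degrees of freedom), and each library left out. Python 3.11.15, numpy 2.4.6 and pandas 2.3.3 were used for tables.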

Additional observations from a re-analysis of the deposited data

How the results depend on the processing

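No gene of complexes I to V passed the adjusted threshold in limma under any scaling, filter, correction or library left out. With voom on derived reads the count was 1 (Cyc1). Over all tested genes the count was 50, and 6 to 174 under the alternatives, the lowest without Aloxe3 replicate 7 and the highest with voom. The median log2 fold change of the 81 genes stayed negative in every setting, from -0.075 to -0.031 with a library left out, and between -0.093 and -0.033 for complex I, the latter without Aloxe3 replicate 9. It ran from -0.093 to -0.026 for complex II, -0.080 to -0.030 for complex III, -0.066 to -0.015 for complex IV (without β-gal replicates 1 and 2) and -0.066 to -0.019 for complex V. Under quantile normalization it was -0.022, -0.013 and -0.021 for complexes III, IV and V, and it was -0.058 for complex IV when genes averaging under 5 RPKM were left out. Cox4i2 was at 0.54 and Atp5g1 at 0.26 with a pseudocount of 0.1 and at 0.60 and 0.28 with voom, and Cox4i2 at 0.21 without β-gal replicate 2. With a library left out the lower genes at an unadjusted p under 0.05 numbered 5 to 15 and the higher ones 0 to 3, against 2.99% to 7.00% and 5.19% to 7.47% of all tested genes. Those with non-overlapping groups numbered 19 to 33 (lower) and 3 to 5 (higher), against 11.4% to 15.5% (lower) and 15.1% to 19.0% (higher) of all tested genes, as 2 libraries overlap less easily with 3. The difference between subunits and assembly factors was -0.014, and ranged from -0.042 to -0.0011 with a library left out. It was -0.0082 with a pseudocount of 0.1 and -0.0014 without a filter, and turned to 0.017 under quantile normalization and to 0.0014 after correction for GC content. Quantile normalization lowered the counts at an unadjusted p under 0.05 to 8 lower and 1 higher (5.82% and 5.86% of all tested genes) and those without overlap to 10 and 1, against 9.93% and 8.60% of all tested genes, so that the 10 lower genes of 81 were near the share over all genes. Under it 11 of the 81 genes changed sign, among them Cox6b1 (0.0087), Cox8a (0.028) and Cycs (-0.0052). The cause was not tested. The count of higher genes at an unadjusted p under 0.05 was 1 without a filter (5.14% of all tested genes), 0 when only genes averaging 5 RPKM or more were kept (5.89%; also 0 without overlap, since Cox4i2 and Atp5g1 were then not tested), and 1 after correction for GC content (5.64%), where Cycs was at -0.0090, or for exon length (5.91%). With a library left out, 3 to 7 of the 81 genes changed sign. Of these, Ndufs1 turned from -0.010 to 0.047 without Aloxe3 replicate 9, and with a library left out Cox7a1 ranged from -0.19 to 0.057, Cox6a2 from -0.083 to 0.042, Cox6b1 from -0.084 to 0.0029, Sdhc from -0.076 to 0.024 and Cycs from -0.022 to 0.083. No paired analysis was possible because the groups share no replicate numbers. Depth limits the low genes such as Cox4i2 (19 to 41 reads per library).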
